A study of Mus musculus with 20 samples.

Results

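The 10 genes described here are the transcription and splicing regulators of the epithelial-mesenchymal transition (EMT), taken by name from the 45706 genes of the deposited count files. Snai1, Snai2, Zeb1, Zeb2, Twist1 and Prrx1, 6 of the 10, encode transcription factors that drive or hold the mesenchymal state. The other 4, Grhl2, Ovol1, Esrp1 and Esrp2, keep cells epithelial, Grhl2 and Ovol1 as transcription factors and the ESRP proteins as splicing factors. All 10 were found and all 10 passed the filter on low counts in both kinds of material.

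The material came from mouse breast cancer driven by polyoma middle T antigen (PyMT), expressed from the MMTV promoter in mammary epithelium. Primary tumors were taken from 18-week-old mice on a C57BL/6N background, 4 control mice with functional Ctsd, the gene of the lysosomal protease cathepsin D, and 4 MMTV-cre;Ctsd-/- mice, in which cre deletes Ctsd in mammary epithelial cells and leaves it in the other cells of the tumor. PyMT tumor cells of Ctsd+/+ and of Ctsd-/- genotype were kept in starvation medium with 1% FCS for 10 days (called 1% FCS) or for 12 weeks (called 1% FCS LT), with 3 replicates of each of these 4 groups. Each genotype of cells is 1 immortalized line from the tumor of 1 mouse, the Ctsd-/- line from an MMTV-cre;Ctsd-/- animal, so that genotype and cell line cannot be told apart. The study calls the 3 replicates independent experiments, and their p-values thus measure the spread between experiments on the same line.

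In an epithelial-mesenchymal transition, cells that are held together by junctions and have an apical and a basal side lose both and take on the shape and motility of mesenchymal cells. SNAIL proteins (Snai1, Snai2) and ZEB proteins (Zeb1, Zeb2) bind E-boxes, short DNA motifs, in the promoters of epithelial genes such as E-cadherin and repress them, while Twist1 and Prrx1 are better known as activators of mesenchymal programs. GRHL2 activates junction genes and represses Zeb1, OVOL1 represses ZEB genes, and ZEB proteins in turn repress Grhl2, the Esrp genes and the microRNAs of the miR-200 family, which target ZEB messages. Breast cancer cells can stop at intermediate states of this transition and can return from it.

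The E-box that SNAIL and ZEB proteins prefer reads CACCTG, or CAGGTG on the other strand. The RefSeq promoter table (GRCm38.p6) holds Snai1, Zeb2, Twist1 and Prrx1 among the 10 genes, and the 250 bases upstream of the start were searched on both strands, counting each match once. Of all 27025 genes with such a window, 19.4% had at least 1 match in a window. Among these 4 genes, Snai1 had 1, which is shown because SNAIL is known to act on its own promoter, and the windows of Zeb2, Twist1 and Prrx1 held no match. The windows of Snai1 and of the first Zeb2 and only Prrx1 start are printed 5′ to 3′ on the gene's strand, with E-boxes in capitals.
Snai1 (chr2:167537945-167538194, plus strand): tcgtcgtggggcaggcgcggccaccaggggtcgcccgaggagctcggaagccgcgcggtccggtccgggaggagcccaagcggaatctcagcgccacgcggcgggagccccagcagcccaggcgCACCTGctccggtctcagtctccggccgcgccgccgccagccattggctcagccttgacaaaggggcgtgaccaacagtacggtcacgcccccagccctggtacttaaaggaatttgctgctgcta
Zeb2 (chr2:45117443-45117692, minus strand): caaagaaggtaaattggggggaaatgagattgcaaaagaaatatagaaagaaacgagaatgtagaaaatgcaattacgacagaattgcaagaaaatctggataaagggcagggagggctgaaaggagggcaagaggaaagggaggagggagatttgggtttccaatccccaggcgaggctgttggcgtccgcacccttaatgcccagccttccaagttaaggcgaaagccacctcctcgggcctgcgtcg
Prrx1 (chr1:163313651-163313900, minus strand): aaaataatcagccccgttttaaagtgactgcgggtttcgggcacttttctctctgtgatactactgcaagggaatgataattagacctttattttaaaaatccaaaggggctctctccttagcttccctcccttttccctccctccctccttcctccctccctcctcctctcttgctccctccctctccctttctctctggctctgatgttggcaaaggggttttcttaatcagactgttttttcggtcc

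The same motif was searched in 16 junction, polarity and trafficking genes that are known as targets of these regulators. Windows were at hand for 11 of them, and 9 of the 11 held at least 1 match, beside 19.4% of all genes. These genes were listed as known targets, some of them because of such motifs, so the share is a description and not independent evidence. The 3 windows shown are those of Crb3, a polarity gene with 3 matches, Ap1m2, a basolateral sorting adaptor with 4, and Rab25, a trafficking GTPase with 2, whose levels are given further on.
Crb3 (chr17:57061951-57062200, plus strand): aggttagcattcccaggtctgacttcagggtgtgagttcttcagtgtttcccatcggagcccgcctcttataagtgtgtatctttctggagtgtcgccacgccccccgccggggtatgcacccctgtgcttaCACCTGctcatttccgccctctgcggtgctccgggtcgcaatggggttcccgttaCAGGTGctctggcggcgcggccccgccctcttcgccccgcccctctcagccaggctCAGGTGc
Ap1m2 (chr9:21312334-21312583, minus strand): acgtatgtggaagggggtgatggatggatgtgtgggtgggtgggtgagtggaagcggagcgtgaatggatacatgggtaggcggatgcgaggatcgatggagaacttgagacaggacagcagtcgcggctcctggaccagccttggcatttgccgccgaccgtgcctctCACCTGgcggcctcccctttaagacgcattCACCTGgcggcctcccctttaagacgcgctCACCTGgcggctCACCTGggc
Rab25 (chr3:88548280-88548529, minus strand): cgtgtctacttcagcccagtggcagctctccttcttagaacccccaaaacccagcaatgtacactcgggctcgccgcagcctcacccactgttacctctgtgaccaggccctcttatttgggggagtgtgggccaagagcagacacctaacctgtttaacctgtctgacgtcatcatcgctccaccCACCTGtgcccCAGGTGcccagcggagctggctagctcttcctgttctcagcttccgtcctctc

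Totals on genes ran from 33622831 to 40239762 counts per cell sample and from 49725437 to 64291587 per tumor. Levels are given as CPM, each count relative to the size of its library, after scaling by the trimmed mean of M-values (TMM), differences as log2 fold changes (FC) with their standard errors (SE), and p-values come from edgeR's quasi-likelihood test, adjusted by Benjamini-Hochberg across every gene that was tested. Ctsd was 17.9-fold lower in Ctsd-/- than in Ctsd+/+ cells in 1% FCS (log2 FC -4.16 ± 0.37) and 13.4-fold lower in 1% FCS LT, and 2.39-fold lower in MMTV-cre;Ctsd-/- than in control tumors, without overlap between the groups in any of the 3 comparisons. The labels hold a batch code whose meaning they do not give. The first replicates in 1% FCS of both genotypes shared a code, the third replicates in 1% FCS LT shared another, and the remaining 8 cell samples shared the last. Of 6 luminal epithelial markers, 5 were above a mean of 1 CPM in every group of cells, and Elf5, which marks luminal progenitors, was near 0 in all of them.

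In 1% FCS the 2 lines stood far apart in these genes. The Ctsd+/+ cells had high levels of Snai1, Snai2, Zeb1, Zeb2 and Prrx1, the Ctsd-/- cells had higher levels of Grhl2, Ovol1, Esrp1 and Esrp2, and Twist1 was at a like level in both. Prrx1 passed the filter on low counts only through the Ctsd+/+ cells in 1% FCS, where it was high, and is left out of the counts and medians for cells. Of the 9 other genes, 4 were lower in Ctsd-/- than in Ctsd+/+ cells past the thresholds (adjusted p of 0.05 and absolute log2 FC of 1) beside 14.6% of the 15178 genes tested, 4 were higher beside 10.3%, and Twist1 was not called. The median log2 FC was -2.41 over the other 5 mesenchymal regulators and 2.00 over the 4 epithelial ones, beside 0.00025 over all genes tested. The plot of levels by cell sample shows all 120 values.

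**Figure D1:**
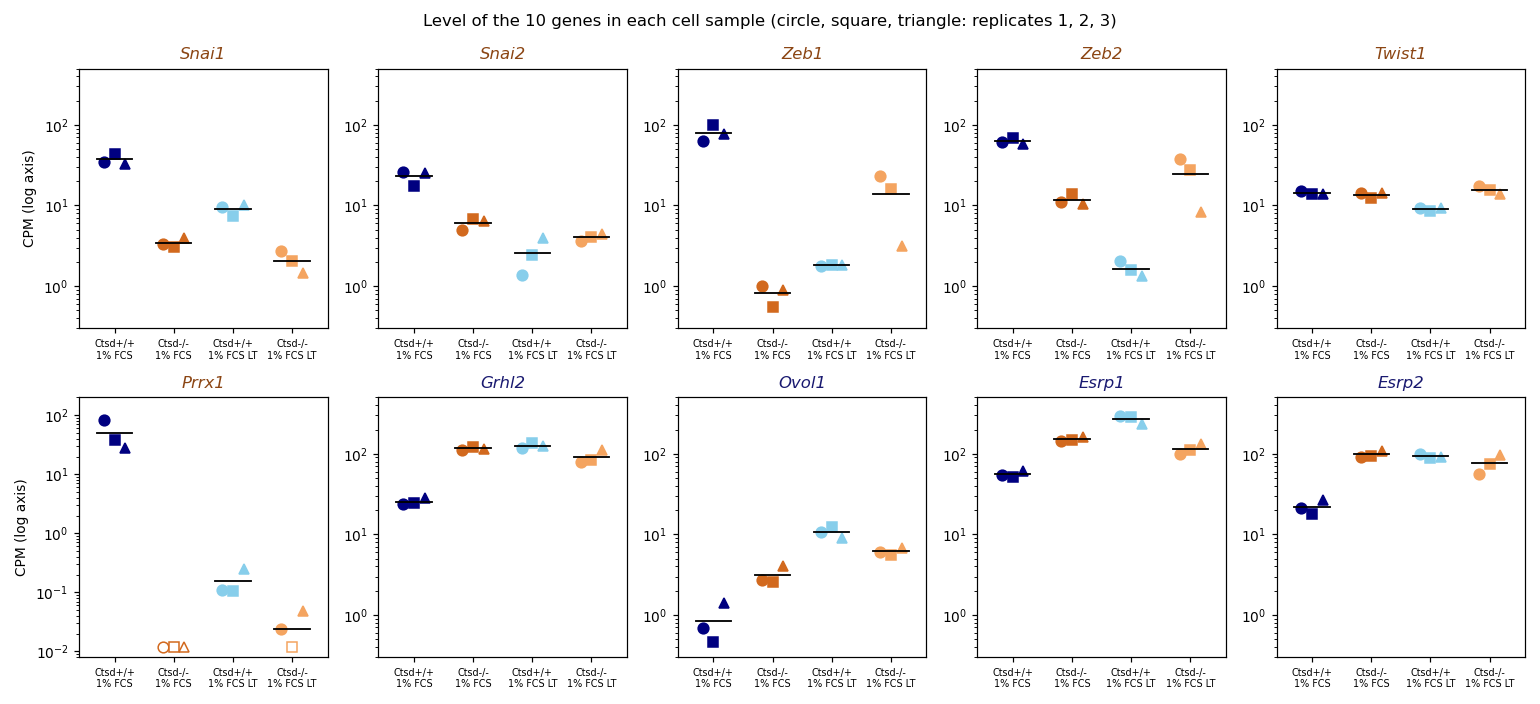
Each panel plots 1 gene, with its level in CPM on a log axis against the 4 groups of cells; circles, squares and triangles are replicates 1, 2 and 3, black lines are group means, and open symbols at the bottom of the Prrx1 panel, whose axis runs lower, are samples with no count. The means of Zeb1 and Zeb2 are highest in Ctsd+/+ cells in 1% FCS and second highest in Ctsd-/- cells in 1% FCS LT, where replicate 3 is the lowest of its group, and Grhl2, Esrp1 and Esrp2 are lowest in Ctsd+/+ cells in 1% FCS.

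Zeb1, on chromosome 18 at 5591860 to 5775467 of GRCm38, encodes the E-box repressor that is most closely tied to loss of E-cadherin. Its level was 62.6, 101.1 and 77.5 CPM in Ctsd+/+ cells in 1% FCS and 0.998, 0.548 and 0.887 CPM in the Ctsd-/- line in 1% FCS, from 41, 20 and 30 counts. In 1% FCS LT it was 1.76, 1.81 and 1.85 CPM in the Ctsd+/+ line against 23.1, 15.9 and 3.15 CPM in the Ctsd-/- line. The order of the lines was thus opposite at the 2 times, with no overlap between the lines at either. Zeb1 was 99.2-fold lower in Ctsd-/- than in Ctsd+/+ cells in 1% FCS (log2 FC -6.62 ± 0.64, edgeR adjusted p = 7.79e-06) and 7.77-fold higher in 1% FCS LT (log2 FC 2.95 ± 0.55, adjusted p = 0.00118).

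Zeb2, on chromosome 2 at 44983632 to 45117395, encodes the second ZEB repressor. It had 61.7, 68.3 and 57.6 CPM in the Ctsd+/+ line against 11.0, 13.9 and 10.4 CPM in the Ctsd-/- line in 1% FCS. At 12 weeks it had 2.03, 1.57 and 1.32 CPM in the Ctsd+/+ line against 37.5, 27.5 and 8.42 CPM in the Ctsd-/- line. Zeb2 shared the pattern of Zeb1 with a smaller gap in 1% FCS, where the Ctsd-/- cells kept a clear level of it. The Ctsd-/- cells were 5.32-fold lower in 1% FCS (log2 FC -2.41 ± 0.40, edgeR adjusted p = 0.000443) and 14.9-fold higher in 1% FCS LT (log2 FC 3.90 ± 0.45, adjusted p = 4.25e-05). The antisense gene Zeb2os, which overlaps Zeb2, had mean levels of 0.0447 to 0.318 CPM in the 4 groups of cells, where the counts keep strands apart.

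Snai1, on chromosome 2 at 167538195 to 167542814, encodes SNAIL, a repressor that is often switched on early in the transition. Its level was 35.0, 44.1 and 33.0 CPM in the Ctsd+/+ line against 3.31, 3.01 and 3.99 CPM in the Ctsd-/- line in 1% FCS, then 9.65, 7.41 and 10.0 CPM in the Ctsd+/+ line against 2.71, 2.06 and 1.45 CPM in the Ctsd-/- line in 1% FCS LT. Snai1 was thus lower in the Ctsd-/- cells at both times, in contrast to the ZEB genes. It was 10.9-fold lower in 1% FCS (log2 FC -3.44 ± 0.24, edgeR adjusted p = 6.6e-07) and 4.36-fold lower in 1% FCS LT (log2 FC -2.12 ± 0.23, adjusted p = 2.83e-05).

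Snai2, on chromosome 16 at 14705852 to 14709385, encodes SLUG, which is also a regulator of basal mammary cells. It had 26.0, 17.5 and 25.4 CPM in the Ctsd+/+ line against 4.96, 6.76 and 6.39 CPM in the Ctsd-/- line in 1% FCS, a 3.81-fold lower level in Ctsd-/- cells (log2 FC -1.93 ± 0.31, edgeR adjusted p = 0.000342). At 12 weeks it had 1.38, 2.42 and 3.98 CPM in the Ctsd+/+ line against 3.64, 4.04 and 4.40 CPM in the Ctsd-/- line, and the groups overlapped (log2 FC 0.63 ± 0.31, adjusted p = 0.132). Without replicate 3 of the Ctsd+/+ cells, which was the highest of its group and had another batch code than replicates 1 and 2, the log2 FC was 1.08 with an adjusted p of 0.0117.

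Prrx1, on chromosome 1 at 163245119 to 163313710, encodes a homeobox factor of limb and craniofacial mesenchyme. It was counted 2772, 1228 and 1076 times in the Ctsd+/+ samples in 1% FCS, 83.1, 37.5 and 28.2 CPM, and passed the filter on low counts only through that group, so that no test of a difference from it is given. The Ctsd-/- samples in 1% FCS had 0 counts each, the Ctsd+/+ samples in 1% FCS LT 4, 4 and 10, and the Ctsd-/- samples in 1% FCS LT 1, 0 and 2. Against 3 counts in the smallest Ctsd-/- library, the level in Ctsd+/+ cells in 1% FCS was at least 559-fold higher. In 1% FCS LT the ratio of Ctsd+/+ to Ctsd-/- cells was 6.42, with a 95% interval of 1.87 to 34.0 that covers counting error only, and was not called (edgeR adjusted p = 0.0902). It was called in 3 of 14 alternatives. These were DESeq2 (log2 FC -2.70, adjusted p = 0.0193), edgeR without the filter (-2.51, adjusted p = 0.0384) and edgeR in the samples of the largest batch code (-2.81, adjusted p = 0.0446).

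Twist1, on chromosome 12 at 33957671 to 33959829, encodes a basic helix-loop-helix factor of mesoderm and was the most even of the 6 over the cell samples, where its log2 CPM spanned 1.01, though not over the tumors, where it spanned 2.20. Its level was 15.3, 13.9 and 13.7 CPM in the Ctsd+/+ line against 14.2, 12.2 and 14.2 CPM in the Ctsd-/- line in 1% FCS, then 9.43, 8.63 and 9.38 CPM in the Ctsd+/+ line against 17.5, 15.4 and 13.7 CPM in the Ctsd-/- line in 1% FCS LT. In 1% FCS the 95% interval of its log2 FC ran from -0.361 to 0.206 (edgeR adjusted p = 0.646). In 1% FCS LT all 3 Ctsd-/- samples lay above the Ctsd+/+ samples, a difference of 0.76 ± 0.13 on the log2 scale that passed the adjusted p (0.00072) but not the fold threshold.

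Grhl2, on chromosome 15 at 37233036 to 37363569, encodes the grainyhead factor that activates junction genes. It had 23.9, 24.6 and 28.1 CPM in the Ctsd+/+ line against 112.7, 122.0 and 115.4 CPM in the Ctsd-/- line in 1% FCS, then 117.9, 134.7 and 125.6 CPM in the Ctsd+/+ line against 79.8, 84.7 and 112.2 CPM in the Ctsd-/- line in 1% FCS LT. The 3 Ctsd+/+ samples in 1% FCS stood well below the 9 others. Grhl2 was 4.57-fold higher in Ctsd-/- cells in 1% FCS (log2 FC 2.19 ± 0.13, edgeR adjusted p = 2.76e-07), and in 1% FCS LT the log2 FC was -0.45 ± 0.13 (adjusted p = 0.0143), below the fold threshold. Ap1m2 and Ocln, both known epithelial genes, had the most similar profiles over the 12 cell samples (Pearson's r of log2 CPM 0.995 and 0.994 among 11517 genes). These 12 points share their groups and libraries, and the values are a description.

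Ovol1, on chromosome 19 at 5549136 to 5560646, encodes a zinc-finger repressor of epidermal and mammary epithelium. Its level was 0.690, 0.458 and 1.41 CPM in the Ctsd+/+ line against 2.75, 2.60 and 4.02 CPM in the Ctsd-/- line in 1% FCS, then 10.7, 12.5 and 9.08 CPM in the Ctsd+/+ line against 6.06, 5.56 and 6.85 CPM in the Ctsd-/- line in 1% FCS LT. The 3 samples of each line at 12 weeks lay above the 3 of the same line at 10 days, and the lines did not overlap at either time. It was 3.66-fold higher in Ctsd-/- cells in 1% FCS (log2 FC 1.85 ± 0.35, edgeR adjusted p = 0.000999), and the log2 FC in 1% FCS LT was -0.80 ± 0.32 (adjusted p = 0.062).

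Esrp1, on chromosome 4 at 11331933 to 11386783, encodes the splicing factor that sets the epithelial isoforms of genes such as Cd44 and Fgfr2. It had 54.0, 52.0 and 60.7 CPM in the Ctsd+/+ line against 144.8, 148.3 and 160.1 CPM in the Ctsd-/- line in 1% FCS, then 293.4, 283.3 and 233.1 CPM in the Ctsd+/+ line against 99.2, 111.4 and 131.8 CPM in the Ctsd-/- line in 1% FCS LT. It changed sides between the 2 times, opposite to Zeb1 and Zeb2. Esrp1 was 2.72-fold higher in Ctsd-/- cells in 1% FCS (log2 FC 1.44 ± 0.13, edgeR adjusted p = 4.07e-06) and 2.37-fold lower in 1% FCS LT (log2 FC -1.24 ± 0.13, adjusted p = 1.73e-05). Its paralog Esrp2, on chromosome 8 at 106130319 to 106136974, had 21.3, 18.0 and 26.9 CPM in the Ctsd+/+ line against 92.1, 94.8 and 107.2 CPM in the Ctsd-/- line in 1% FCS, a 4.45-fold higher level (log2 FC 2.15 ± 0.19, adjusted p = 4.06e-06). At 12 weeks Esrp2 had 99.2, 89.0 and 90.5 CPM in the Ctsd+/+ line against 56.7, 75.5 and 95.6 CPM in the Ctsd-/- line, which overlapped (log2 FC -0.29 ± 0.18, adjusted p = 0.226). Exon-level counts were not used here, so the splicing that the ESRP proteins control was not measured.

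At 12 weeks fewer of the genes were called between the lines. In 1% FCS LT, 2 genes were higher in Ctsd-/- than in Ctsd+/+ cells, Zeb1 and Zeb2, beside 9.24% of all genes tested, and 2 were lower, Snai1 and Esrp1, beside 10.1%. The median log2 FC was 0.76 over the 5 mesenchymal regulators without Prrx1 and -0.63 over the 4 epithelial regulators, beside 0.014 over all genes. In the samples of the largest batch code alone, Snai2 was called in addition to the 4 (log2 FC 1.01, edgeR adjusted p = 0.0302). Prrx1, left out of these counts, was called there too, from only 4 and 4 counts in Ctsd+/+ and 1 and 0 in Ctsd-/- cells.

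**Figure D2:**
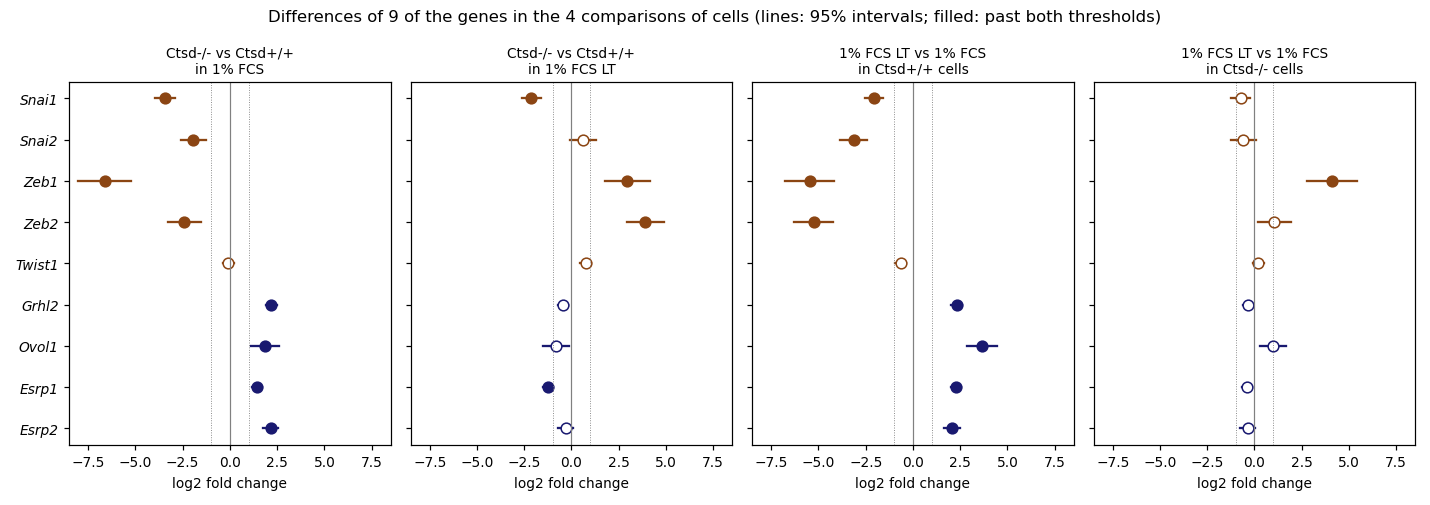
Log2 fold change of 9 genes in the 4 comparisons of cells, with mesenchymal regulators in brown and epithelial ones in blue; lines are 95% intervals, dotted lines mark a log2 FC of 1 in each direction, and filled symbols passed both thresholds. Prrx1 is left out because its counts of 0 leave the size of its fold undetermined. In 1% FCS 4 of the 5 mesenchymal regulators shown lie left of 0 past the thresholds and all 4 epithelial ones right of it, and in 1% FCS LT Zeb1 and Zeb2 lie on the other side.

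The 2 times were compared within each line. In Ctsd+/+ cells, 4 of the 9 genes other than Prrx1 fell from 10 days to 12 weeks in 1% FCS (Snai1, Snai2, Zeb1 and Zeb2), beside 12.3% of all genes, and the 4 epithelial regulators rose, beside 11.0%. Zeb1 fell 44.5-fold (log2 FC -5.47 ± 0.59, edgeR adjusted p = 2.14e-05), Zeb2 38.1-fold (-5.25 ± 0.47, adjusted p = 4.92e-06), Snai2 8.86-fold (-3.14 ± 0.33, adjusted p = 1.62e-05) and Snai1 4.14-fold (-2.05 ± 0.22, adjusted p = 2.06e-05). The level of Prrx1 was 318-fold lower at 12 weeks, with no test given because its high group admitted it. Ovol1 rose 12.6-fold (3.64 ± 0.36, adjusted p = 1.06e-05), and Grhl2, Esrp1 and Esrp2 rose 4.94-, 4.86- and 4.21-fold. Twist1 moved by -0.64 ± 0.13 on the log2 scale (adjusted p = 0.00179), without overlap and below the fold threshold. These counts cannot tell a change within cells from a change in the makeup of the culture.

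In Ctsd-/- cells only Zeb1 passed the thresholds over the same time, 1 gene higher beside 1.11% of all genes, and none of the 10 was lower, beside 0.369%. Without adjustment, 6 of the 10 had a p below 0.05 in edgeR, beside 18.0% of all genes. Zeb1 rose 17.3-fold (log2 FC 4.10 ± 0.59, edgeR adjusted p = 0.00855), and all 3 samples at 12 weeks lay above all 3 at 10 days. The call was lost without replicate 2 of the Ctsd-/- cells in 1% FCS (log2 FC 3.89, adjusted p = 0.0511). Zeb2 had a log2 FC of 1.06 ± 0.39 with an adjusted p of 0.18, and 1.47 with an adjusted p of 0.00435 without replicate 3 in 1% FCS LT, the sample of another batch code with the lowest Zeb1 and Zeb2 of its group. Ovol1, at 0.98 ± 0.32, was higher in all 3 samples at 12 weeks but was not called (adjusted p = 0.135), and neither were Grhl2, Esrp1 and Esrp2, at -0.34 ± 0.13, -0.40 ± 0.12 and -0.37 ± 0.18.

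The change over time was also compared between the lines, as the change in Ctsd-/- cells minus that in Ctsd+/+ cells. This difference was positive past the thresholds for 4 of the 9 genes other than Prrx1, beside 11.0% of all genes, and negative for 4, beside 8.12%. It was 9.58 ± 0.84 for Zeb1 (edgeR adjusted p = 1.22e-05), 6.31 ± 0.60 for Zeb2 (adjusted p = 2.23e-05), 2.56 ± 0.44 for Snai2 (adjusted p = 0.00114) and 1.32 ± 0.31 for Snai1 (adjusted p = 0.00813) on the log2 scale. For Prrx1 the difference rests on the Ctsd+/+ cells in 1% FCS, the group that admitted it, and no test is given. Among the epithelial regulators it was -2.64 ± 0.18 for Grhl2, -2.66 ± 0.47 for Ovol1, -2.68 ± 0.18 for Esrp1 and -2.44 ± 0.26 for Esrp2. For Twist1 it was 0.84 ± 0.18 (adjusted p = 0.00497), below the fold threshold. The comparisons share their groups of samples, so their counts of calls are not independent of each other.

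The known targets of these regulators were read beside them. All 16 epithelial target genes tested were higher in Ctsd-/- than in Ctsd+/+ cells in 1% FCS, beside 10.3% of all genes, with a median log2 FC of 2.59. All 16 rose in Ctsd+/+ cells over time, beside 11.0%, with a median of 2.55. Crb3, whose upstream window is printed above, had 2.13 ± 0.88 CPM (SD, n = 3) in Ctsd+/+ and 37.2 ± 1.4 CPM in the Ctsd-/- line in 1% FCS and 28.1 ± 5.4 CPM in Ctsd+/+ cells in 1% FCS LT. Rab25 and Ap1m2 rose 9.03- and 6.14-fold in Ctsd+/+ cells over time (log2 FC 3.17 ± 0.17 and 2.62 ± 0.11). Cdh1, which encodes E-cadherin, had 267 ± 38 CPM in Ctsd+/+ and 954 ± 38 CPM in the Ctsd-/- line in 1% FCS. At 12 weeks the order was opposite, with 913 ± 82 CPM in Ctsd+/+ and 439 ± 58 CPM in the Ctsd-/- line (log2 FC -1.06 ± 0.13, edgeR adjusted p = 9.37e-05). Cdh1, Dsp (desmoplakin) and Llgl2 (a polarity gene) were the 3 of 16 that were lower in Ctsd-/- cells at 12 weeks, beside 10.1% of all genes. Cdh1 was the single one that fell in Ctsd-/- cells over time, beside 0.369% (log2 FC -1.12 ± 0.13, edgeR adjusted p = 0.00344).

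**Figure D3:**
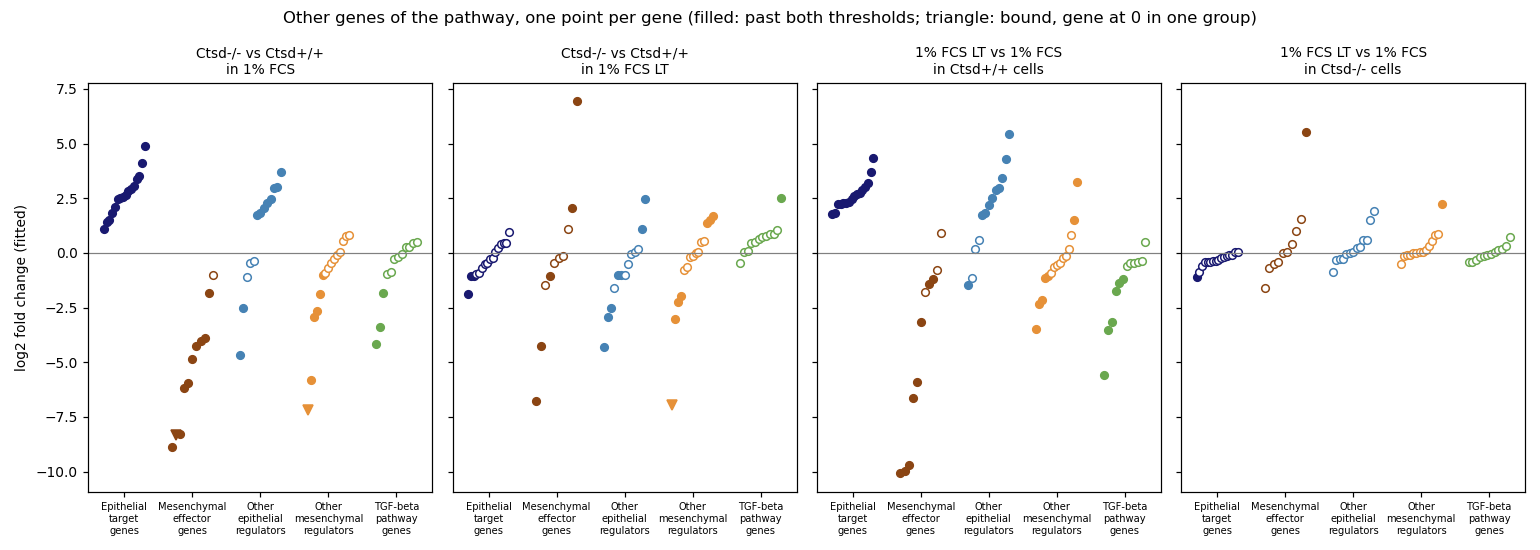
Each point is 1 gene of 5 lists, with its fitted log2 fold change on the vertical axis and the 4 comparisons of cells in 4 panels, sorted by value within a list; filled points passed both thresholds, triangles are bounds for genes with no count in 1 group, and other genes with 3 counts or fewer in all samples of a group together are left out. The 16 epithelial target genes lie above 0 in Ctsd-/- against Ctsd+/+ cells in 1% FCS and in Ctsd+/+ cells over time.

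Of 12 mesenchymal effector genes, 11 were lower in Ctsd-/- than in Ctsd+/+ cells in 1% FCS, beside 14.6% of all genes, with a median log2 FC of -5.41. In Ctsd+/+ cells over time 9 fell, beside 12.3%, with a median of -4.55. Acta2, Tagln and Col3a1 averaged 28.2, 6.02 and 107 CPM in Ctsd+/+ cells in 1% FCS. In the other groups of cells their means were at most 0.0169, 0.0958 and 0.0948 CPM. These genes passed the filter on low counts only through that high group. Their direction in both comparisons was thus fixed in advance and adds nothing to these counts and medians. Vim, which encodes the intermediate filament vimentin, had 2750, 2967 and 3481 CPM in the Ctsd+/+ line against 8.61, 11.1 and 9.76 CPM in the Ctsd-/- line in 1% FCS. At 12 weeks it had 3.03, 0.906 and 7.18 CPM in the Ctsd+/+ line against 809.8, 506.0 and 38.1 CPM in the Ctsd-/- line. Like Zeb1, Vim had its highest mean in Ctsd+/+ cells in 1% FCS and its second highest in Ctsd-/- cells in 1% FCS LT, and replicate 3 of the latter was the lowest of that group in both genes. Vim was the 1 effector of 12 called in Ctsd-/- cells over time (log2 FC 5.52 ± 0.95, edgeR adjusted p = 0.0154), higher beside 1.11% of all genes. The median there was 0.023, also over 10 genes without Acta2 and Col3a1, which had at most 3 counts in each of these samples. Of the 12 fitted log2 FCs 5 were negative, but the signs for Acta2 and Col3a1 are not determined. At 12 weeks 2 of the 12 were higher in Ctsd-/- than in Ctsd+/+ cells, beside 9.24% of all genes, and 3 lower, beside 10.1%. The other effector called higher beside Vim was Sparc (log2 FC 2.04 ± 0.37), a matrix protein, while Tnc (tenascin C), S100a4 and Fn1 (fibronectin) were lower, at log2 FCs of -6.76, -4.24 and -1.08. The type I collagen gene Col1a1 had 1437 ± 895 CPM in Ctsd+/+ cells in 1% FCS and means of 1.42 to 3.09 CPM in the 3 other groups.

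Of 15 other mesenchymal regulators tested, from 16 listed, 6 were lower and none higher in Ctsd-/- than in Ctsd+/+ cells in 1% FCS, with a median log2 FC of -0.68. Of all genes, 14.6% were lower and 10.3% higher there. At 12 weeks 4 of the 15 were lower and 3 higher, beside 10.1% and 9.24%. In Ctsd+/+ cells over time 5 fell and 2 rose, beside 12.3% and 11.0%. Twist2, the paralog of Twist1, had 13.1 ± 2.4 CPM in Ctsd+/+ cells in 1% FCS and 9.54 ± 1.34 CPM in 1% FCS LT, while all 6 Ctsd-/- samples had 0 counts, at least 148-fold lower in 1% FCS and at least 123.5-fold lower in 1% FCS LT, against 3 counts in the smallest library. Twist2 passed the filter on low counts only through the Ctsd+/+ cells, which fixed its place among the lower genes in advance. Foxc2, a forkhead factor of the transition, had 24.1 ± 4.6 CPM in Ctsd+/+ and 0.432 ± 0.118 CPM in the Ctsd-/- line in 1% FCS. In Ctsd-/- cells over time 1 of the 15 was higher, beside 1.11% of all genes, Lef1 (log2 FC 2.24 ± 0.49, edgeR adjusted p = 0.0372), a partner of beta-catenin. Its level was low, from 29, 10 and 5 counts at 10 days (0.148 to 0.706 CPM) and 88, 81 and 52 at 12 weeks (1.26 to 2.11 CPM). Of 13 other epithelial regulators tested, from 14 listed, 8 were higher and 2 lower in Ctsd-/- cells in 1% FCS, with a median of 1.82. Ehf and Elf3, ETS factors of simple epithelia, were higher by 3.68 ± 0.30 and 3.03 ± 0.32, while Klf4, a factor of barrier epithelia, and Trp63, a basal cell factor, were lower (log2 FC -2.53 ± 0.30 and -4.67 ± 1.09, the latter at a mean of 1.45 CPM in Ctsd+/+ cells). At 12 weeks 5 of the 13 were lower and 2 higher in Ctsd-/- than in Ctsd+/+ cells, beside 10.1% and 9.24% of all genes. Grhl3 and Grhl1, paralogs of Grhl2, were among the lower ones (log2 FC -4.29 ± 0.50 and -2.95 ± 0.62), whereas Grhl2 itself did not pass the fold threshold. Grhl3 passed the filter on low counts only through the Ctsd+/+ cells in 1% FCS LT, which fixed its direction in advance.

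TGF-beta is the best known signal that induces SNAIL and ZEB genes. Of 12 ligand, receptor and SMAD pathway genes, 3 were lower in Ctsd-/- than in Ctsd+/+ cells in 1% FCS, beside 14.6% of all genes. They were the ligand genes Tgfb2 (log2 FC -4.15 ± 0.46) and Tgfb3 (-3.40 ± 0.50) and the SMAD corepressor Ski (-1.83 ± 0.18). In Ctsd+/+ cells over time 6 fell, beside 12.3%. Tgfb1 had 43.1 ± 10.8 CPM in Ctsd+/+ and 23.8 ± 2.6 CPM in the Ctsd-/- line in 1% FCS, and 4.74 ± 1.3 CPM and 26.7 ± 5.1 CPM in 1% FCS LT. There it was the 1 gene of the 12 that was called, higher in Ctsd-/- cells (log2 FC 2.49 ± 0.23, edgeR adjusted p = 1.02e-05). Of all genes, 9.24% were higher there and 10.1% lower. None of the 12 was called in Ctsd-/- cells over time, where 15178 genes gave 225 calls in both directions. The genes of the miR-200 family and miR-205 did not pass the filter on low counts in either material, and mature microRNAs were not measured.

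Fibroblast markers differed between the groups of cells. The summed level of 8 fibroblast markers was 1463 to 3180 CPM in Ctsd+/+ cells in 1% FCS, 5.07 to 11.8 CPM in the Ctsd-/- line in 1% FCS, 2.81 to 7.63 CPM in Ctsd+/+ cells in 1% FCS LT and 9.92 to 130.5 CPM in the Ctsd-/- line in 1% FCS LT. In Ctsd+/+ cells in 1% FCS 4 of the 8 were above a mean of 1 CPM, led by Col1a1 and Pdgfrb (468.5 CPM), while Lum, Dpt and Thy1 had 0 counts and Dcn averaged 0.742 CPM. Col1a1 is also among the 12 effectors, and Cdh1 and Epcam are among both the luminal markers and the 16 target genes. The summed level of 6 luminal markers was 878 to 1692 CPM in these cells and 4285 to 10110 CPM in the 9 other cell samples. Adipocyte, lymphocyte, muscle, endothelial and macrophage sums reached at most 1.84, 0.837, 3.81, 7.02 and 64.2 CPM in any cell sample, and the myoepithelial sum ran from 4.33 to 77.4 CPM. Whether cells of another type took part in the differences between groups of cells was not tested.

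In tumors the 10 genes differed far less between the genotypes, and bulk tissue adds that fewer cells of a type and less RNA per cell cannot be told apart. By the threshold of the study for tumors, an unadjusted p of 0.1, 2 of the 10 genes were higher in MMTV-cre;Ctsd-/- than in control tumors, Zeb2 and Prrx1, beside 8.44% of the 18617 genes tested, and none was lower, beside 8.27%. At an adjusted p of 0.05 none of the 10 was called in edgeR, beside 0.00537% of all genes, and at an unadjusted p of 0.05 only Zeb2 was, beside 8.94%. The median log2 FC was 0.58 over the 6 mesenchymal and 0.00042 over the 4 epithelial regulators, beside 0.00073 over all genes. Each genotype of tumors had a batch code of its own in the labels, and an effect of that batch cannot be told apart from one of the genotype.

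Zeb2 had 9.02, 17.3, 8.02 and 8.45 CPM in control tumors 1 to 4 and 14.4, 10.5, 26.0 and 40.3 CPM in MMTV-cre;Ctsd-/- tumors 1 to 4. The groups overlapped, and the MMTV-cre;Ctsd-/- tumors 3 and 4 lay above all others. The difference was 2.13-fold (log2 FC 1.09 ± 0.43, edgeR unadjusted p = 0.0285, adjusted p = 0.544). Prrx1 had 9.36, 11.8, 5.90 and 10.3 CPM in control and 12.8, 9.09, 13.3 and 32.1 CPM in MMTV-cre;Ctsd-/- tumors, with tumor 4 far above the rest (log2 FC 0.85 ± 0.40, edgeR unadjusted p = 0.0569, adjusted p = 0.565). Without MMTV-cre;Ctsd-/- tumor 4 neither passed the threshold, at log2 FCs of 0.67 for Zeb2 (edgeR unadjusted p = 0.121) and 0.33 for Prrx1 (unadjusted p = 0.303), and Prrx1 also failed it without control tumor 3 (0.68, unadjusted p = 0.141).

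Snai2, Zeb1 and Twist1 were not called (log2 FC 0.50 ± 0.37, 0.67 ± 0.42 and 0.43 ± 0.46, unadjusted p = 0.207, 0.144 and 0.369 in edgeR). Their levels ran from 5.22 to 9.88, 3.98 to 12.0 and 1.91 to 2.83 CPM in control tumors and from 5.70 to 15.5, 6.89 to 20.5 and 1.25 to 5.86 CPM in MMTV-cre;Ctsd-/- tumors. Zeb1 passed the threshold without control tumor 2 and without MMTV-cre;Ctsd-/- tumor 1 or 2 (log2 FC 0.93, 0.83 and 0.87, edgeR unadjusted p = 0.0663, 0.0917 and 0.0662), and Snai2 without MMTV-cre;Ctsd-/- tumor 1 (0.72, unadjusted p = 0.0649). For all 3 the MMTV-cre;Ctsd-/- tumors 3 and 4 were the highest of the 8. Snai1 ran from 6.82 to 12.1 CPM in control and from 7.82 to 10.9 CPM in MMTV-cre;Ctsd-/- tumors and showed no such order.

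The epithelial regulators were level between the genotypes. Grhl2 averaged 32.5 ± 8.1 CPM (SD, n = 4) in control and 33.9 ± 7.1 CPM in MMTV-cre;Ctsd-/- tumors, Ovol1 14.6 ± 3.2 and 14.7 ± 1.4 CPM, Esrp1 172.6 ± 41.2 and 172.0 ± 30.3 CPM, and Esrp2 50.7 ± 6.6 and 48.9 ± 3.8 CPM. The 95% intervals of the log2 FC ran from -0.468 to 0.587 for Grhl2, -0.475 to 0.486 for Ovol1, -0.512 to 0.502 for Esrp1 and -0.435 to 0.331 for Esrp2. Differences within these bounds could not be told from none. The tumor counts ignore strand, and Gm16136, an antisense gene that shares exon bases with Grhl2, averaged 50.9 and 52.2 CPM.

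**Figure D4:**
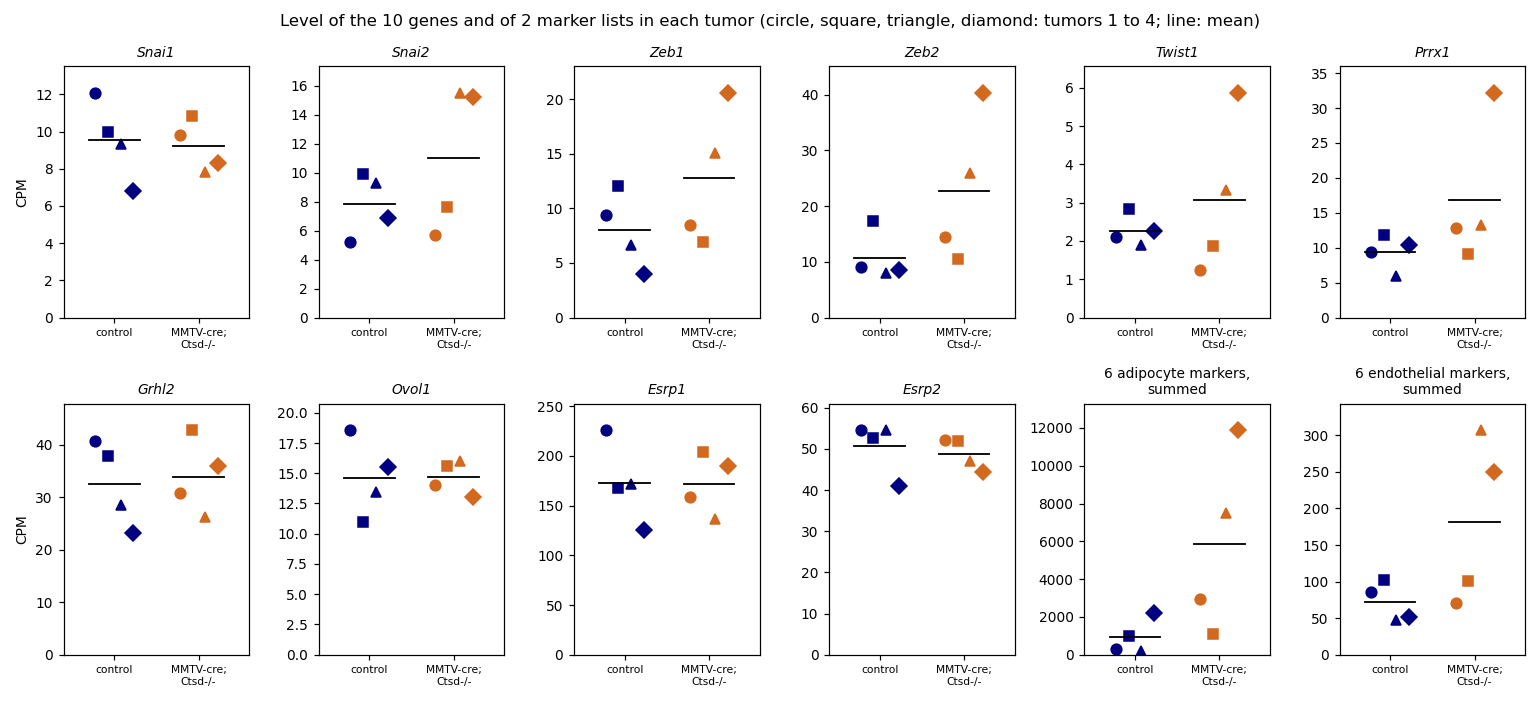
Each panel plots the CPM of 1 gene, or the summed CPM of a marker list in the last 2 panels, against the genotype of the tumor; circles, squares, triangles and diamonds are tumors 1 to 4 of a group and black lines are group means. MMTV-cre;Ctsd-/- tumors 3 and 4 are highest in Snai2, Zeb1, Zeb2 and Twist1 and in the sums of adipocyte and of endothelial markers.

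The summed markers of adipocytes, of endothelial and of myoepithelial cells were highest in the same MMTV-cre;Ctsd-/- tumors 3 and 4. The sums for fibroblasts, macrophages and lymphocytes did not follow this order. The sum of 6 adipocyte markers was 293, 965, 218 and 2231 CPM in control tumors and 2939, 1106, 7491 and 11870 CPM in MMTV-cre;Ctsd-/- tumors, and the sum of 6 endothelial markers was 85.8, 101.6, 47.7 and 51.5 CPM and 71.0, 100.8, 306.8 and 249.3 CPM. The sum of 6 myoepithelial markers was 303, 555.5, 235 and 246 CPM in control and 212, 235, 1003 and 646 CPM in MMTV-cre;Ctsd-/- tumors, so that tumors 3 and 4 were the highest here too. The sum of 8 fibroblast markers was 1206, 1801, 489 and 538 CPM in control and 1001, 1329, 1853 and 1331 CPM in MMTV-cre;Ctsd-/- tumors. Taken singly, all 8 had a positive log2 FC (median 0.52), and 2 were called higher, beside 8.44% of all genes. Among the 6 endothelial markers 5 were called higher, and among the 6 myoepithelial markers 2. For 6 macrophage markers it was 447, 1236, 718 and 892 CPM and 1198, 541, 606 and 603 CPM. For 6 lymphocyte markers it was 36.3, 42.7, 30.1 and 35.7 CPM and 43.1, 28.35, 34.3 and 24.9 CPM. The luminal sum was 4809 to 8033 CPM in control and 4117 to 5943 CPM in MMTV-cre;Ctsd-/- tumors, and the muscle sum was 1137 CPM in control tumor 4, 324 CPM in MMTV-cre;Ctsd-/- tumor 1 and at most 103.7 CPM in the 6 others. With the mean log2 level of the adipocyte markers as a covariate, none of the 10 genes was called, and the log2 FC was -0.27 for Zeb2 and -0.31 for Prrx1. All 6 adipocyte markers were themselves called higher where Ctsd was deleted (median log2 FC 3.01). This covariate thus overlaps with the genotype, and the fit cannot separate them. With the luminal markers as a covariate instead, Zeb2 and Prrx1 kept their direction and their call. The part of other cell types in the differences of Zeb2 and Prrx1 was not tested beyond these fits. Of all genes, 8.44% were higher and 8.27% lower at this threshold. Of the other lists, 4 of 13 other mesenchymal regulators tested were higher and none lower, and none of the 16 epithelial target genes was called. Of the 12 effectors none was higher and S100a4 was lower (log2 FC -1.49 ± 0.60), at means of 0.621 CPM in control and 0.219 CPM in MMTV-cre;Ctsd-/- tumors. None of the 12 TGF-beta pathway genes was called, and 1 of 14 other epithelial regulators, Klf4, was higher, beside 8.44% of all genes.

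The levels of the 10 genes can be compared with each other only per length, as CPM per kilobase of merged exons. In control tumors Esrp1 was highest (27.4 ± 6.5) and Esrp2 second (11.7 ± 1.5), followed by Snai1 (5.89 ± 1.33), Ovol1 (4.19 ± 0.92), Snai2 (3.86 ± 1.07) and Grhl2 (3.78 ± 0.95), and the SDs of these last 4 overlapped with those of their neighbors in this order. Twist1 (1.395 ± 0.243), Prrx1 (0.846 ± 0.228), Zeb1 (0.781 ± 0.337) and Zeb2 (0.536 ± 0.222) were lowest, the last 3 with overlapping SDs. In MMTV-cre;Ctsd-/- tumors the means ran from 27.3 for Esrp1 to 1.14 for Zeb2, again the highest and the lowest. In Ctsd-/- cells in 1% FCS Esrp1 (24.0 ± 1.3) and Esrp2 (22.6 ± 1.9), with overlapping SDs, were also highest, followed by Grhl2 (13.6 ± 0.6). In Ctsd+/+ cells in 1% FCS Snai1 (23.0 ± 3.6) and Snai2 (11.4 ± 2.3) led, ahead of Esrp1 (8.82 ± 0.72), Twist1 (8.78 ± 0.54) and Zeb1 (7.83 ± 1.89), where the SDs of Snai2 and of the last 3 overlapped, and Ovol1 (0.245 ± 0.143) was last. At 12 weeks Esrp1, Esrp2 and Grhl2 led in both lines, at 42.8 ± 5.1, 21.4 ± 1.3 and 14.6 ± 1.0 in Ctsd+/+ and 18.1 ± 2.6, 17.5 ± 4.5 and 10.7 ± 2.0 in Ctsd-/- cells, and Zeb1 stood at 0.176 ± 0.005 and 1.37 ± 0.98.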

How the data were processed

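RNA-seq had been done on 8 tumors and 12 cell samples. Per the study's methods, the authors trimmed reads with Trimmomatic, aligned them to GRCm38/mm10 with STAR and deposited its raw counts per gene; the annotation release is not given in the sources used here. Each file holds unstranded counts and counts on each strand: 52.8 to 53.7% of stranded tumor counts and 97.1 to 97.3% of those of cells lay on the opposite strand, so unstranded counts were used for tumors and opposite-strand counts for cells. Rows that name no gene (14.8 to 32.7% of all counts) were left out.

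Names and positions came from GENCODE M21, which matched 45143 of 45706 gene IDs, and promoter windows from RefSeq (GRCm38.p6). Genes were filtered with filterByExpr, libraries scaled by TMM, and counts fitted with edgeR 4.0.16 quasi-likelihood models in R 4.3.3, separately for tumors (18617 genes) and for the 4 groups of cells together (15178 genes), with Benjamini-Hochberg adjustment. Calls used the p thresholds that the study set with limma: an unadjusted p below 0.1 in tumors and an adjusted p below 0.05 in cells. In cells an absolute log2 FC above 1 was also required. The study states this fold threshold for its corrected long-term comparison, together with a cutoff on expression that was not applied here. DESeq2 1.42.0, limma-voom (limma 3.58.1), other size factors, no filter, the other strand form, a replicate block, marker covariates, a single batch code and leaving out each replicate were alternatives. Scripts were tested on simulated data. Outside the 10 genes, the text names from each list up to 3 genes per comparison with the largest changes among those called without overlap, genes that overlap a member, and the most alike profiles; some items are not reported here; Klf4 in 1% FCS and tumors, Sparc, Fn1, Cdh1 and Tgfb1 levels, Ap1m2, Pdgfrb and other single markers were chosen for display after their values were seen. The 10 genes and all lists were chosen with earlier results of these data known.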

Additional observations from a re-analysis of the deposited data

Results flagged for a closer look

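The change from 10 days to 12 weeks in 1% FCS was tested for a difference between the lines (edgeR, adjusted over 15178 genes). Of the 9 genes other than Prrx1, 4 passed both thresholds in the positive direction, beside 11.0% of all genes. Another 4 passed them in the negative direction, beside 8.12%. Twist1 passed the adjusted p but not the fold threshold. The change in Ctsd-/- cells minus that in Ctsd+/+ cells was 9.576 for Zeb1, 6.31 for Zeb2, 2.56 for Snai2 and 1.319 for Snai1 on the log2 scale. For Prrx1 the fitted value was 11.34, whose size is not determined because the Ctsd-/- samples in 1% FCS had 0 counts. Prrx1 entered the test only through its high group, so it is left out of these counts and no test of it is given. The difference was -2.684 for Esrp1, -2.656 for Ovol1, -2.643 for Grhl2 and -2.442 for Esrp2. Each genotype is 1 line, so the lines and the genotypes cannot be told apart.

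In tumors, 2 of 20 gene and group pairs held a tumor that stood apart from the 3 others of its group. Zeb2 in control tumor 2 (17.3 CPM, the others 8.02 to 9.02) had a gap of 0.8929 of the range of the group, and Esrp2 in control tumor 4 (40.9 CPM, the others 52.7 to 54.5) had a gap of 0.8707. Chance alone flags about 1 in 20 such groups.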

How the results depend on the processing

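Of 920 recomputed values for the 10 genes, 872 kept their direction and their side of the threshold, 8 lost and 13 gained it, and 27 turned direction, all 27 in tumors. In cells, each of the 9 genes other than Prrx1 stayed on its side of the thresholds in 1% FCS under every alternative tried. The same held over time in the Ctsd+/+ line and for the difference of the changes. Between the lines at 12 weeks Snai2 gained a call in 3 of 14 alternatives, and the others kept their side. Prrx1 is left out here because its high group admitted it. The cause of the changes listed here was not tested.

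For Ctsd-/- cells over time, members called (1) went to 0 with limma-voom, where Zeb1 had a log2 FC of 3.704 (adjusted p = 0.0714), and to 2, with Zeb2, in the samples of the largest batch code and without replicate 3 of both 1% FCS LT groups, an alternative chosen after seeing the data; the range was 0 to 2 when 1 replicate was left out. All genes called there (225) came to 502 with DESeq2, 475 without a filter, 484 in the samples of the largest batch code, and 48 to 291 when 1 replicate was left out, with 48, 54, 110 and 74 without Ctsd-/- replicates 2 and 3 in 1% FCS and 1 and 2 in 1% FCS LT.

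In tumors, members called (2) were 1 with limma-voom, where Prrx1 had an unadjusted p of 0.101, 0 with the adipocyte covariate, and 0 to 4 when 1 tumor was left out, with 0 without MMTV-cre;Ctsd-/- tumor 4, 1 without control tumor 3 and 4 without MMTV-cre;Ctsd-/- tumor 1, where Snai2 and Zeb1 were added. Genes called (3112) were 5437 without a filter, 1816 with the replicate block, 1553 with the adipocyte covariate and 1807 to 4465 when 1 tumor was left out, with 1995 and 1807 without MMTV-cre;Ctsd-/- tumors 3 and 4. The log2 FC of Ovol1 was -0.00512 with DESeq2, -0.005358 with RLE factors and -0.00529 with the other strand form, and that of Esrp1 was 0.01408 with limma-voom, 0.005547 without a filter and 0.008482 with the replicate block. With the adipocyte covariate it was 0.3255 for Snai1, -0.2758 for Snai2, -0.2711 for Zeb1, -0.2665 for Zeb2, -0.8345 for Twist1, -0.3059 for Prrx1, 0.2769 for Esrp1 and 0.1888 for Esrp2, and with the luminal covariate -0.1362 for Grhl2. Leaving out 1 tumor gave -0.1808 to 0.0802 for Snai1, -0.08254 to 0.7009 for Twist1, -0.07196 to 0.1867 for Grhl2, -0.1097 to 0.1433 for Ovol1 and -0.1285 to 0.1531 for Esrp1.

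Same-numbered samples correlated at -0.303 to -0.00755 in tumors, 0.09997 to 0.362 between the lines at 10 days (mean 0.254, other numbers -0.126), 0.00181 to 0.119 between them at 12 weeks and 0.0766 to 0.192 within the Ctsd-/- line. In no pair of groups were all above 0.1, so the replicate block stayed an alternative; it changed no call of a member. With 3 or 4 samples a group, 1 line a genotype and 1 batch code a tumor genotype, small differences in tumors could not be resolved.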
